A study of Homo sapiens with 18 samples.

Results

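Interferon-stimulated genes and the sensors of foreign or misplaced nucleic acid were followed in 2 human melanoma cell lines treated with inhibitors of CDK4/6 or of PRMT5. The members were 49 genes listed by name, and 40 of them had an entry among the 20705 gene symbols of the count table. They comprised 7 sensors and adaptors, 5 transcription regulators, IFIT5, 2 genes of the OAS family, 7 genes of the ISG15 and ADP-ribosylation pathway, 2 membrane restriction factors and 16 other effectors. The remaining 9 (MB21D1, which encodes cGAS, IRF9, IFIT1, IFIT2, IFIT3, OAS2, OAS3, IFITM1 and IFITM3) were not analysed here. CHL1 and A375 are established lines, each labelled WT for genotype, and A375 carries a BRAF mutation that CHL1 lacks. The study's methods list p53 as mutant in CHL1 and wild type in A375. They give DMEM as the medium of CHL1 and RPMI as that of A375. Each line received DMSO for 72 hours, 1 µM palbociclib (CDK4/6i) for 72 hours, 1 µM palbociclib for 6 days, or 500 nM GSK3326595 (PRMT5i) for 72 hours. A375 also had a 6-day DMSO control, whereas the 6-day CHL1 samples could only be set against the 72-hour control. Each of the 9 groups held 2 libraries, 18 in all. The study's methods speak of replicates grown for each condition but not of independent experiments, so p-values measure only the spread between these libraries, which may be technical. Each line is a single model of melanoma, grown without immune cells.

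RIG-I (encoded by DDX58) and MDA5 (IFIH1) bind viral or misplaced cellular RNA and signal through MAVS, while DNA in the cytosol acts through cGAS and STING (TMEM173). Their signals activate IRF3 and IRF7, which induce interferons. Interferons act through their receptors on STAT2 and IRF9, which take part in binding the interferon-stimulated response element in the promoters of effector genes such as ISG15, MX1 and the IFIT family. In tumour cells, CDK4/6 inhibitors are known to raise interferon-stimulated genes, and inhibition of PRMT5 has been tied in melanoma to interferon signalling through IFI16, STING and NLRC5.

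The response element was searched for in the promoters of the members as a description. The members were listed as interferon-stimulated or sensing genes, so a high share was likely from the start and is not independent evidence. The motif was GAAA, any 2 bases and GAAA again, on either strand, in RefSeq promoters of build GRCh38.p14 that run from 250 bases before the transcription start to 50 bases after it. Promoters were found for 30 of the 40 members, and 19 of the 30 (63.3%) held the motif, against 4.38% of all 27305 genes with a promoter and 3.57% of 35116 promoters. Of members with a promoter, 1 of 5 called higher in A375 with CDK4/6i at 72 hours held it, beside 18 of 25 not called. At 6 days there it was 1 of 4 higher, 6 of 6 lower and 12 of 20 not called. In CHL1 with PRMT5i it was 8 of 11 higher, 4 of 8 lower and 7 of 11 not called. In CHL1 with CDK4/6i at 6 days it was 3 of 5 higher, 0 of 1 lower and 16 of 24 not called. The windows below show 8 members picked because they hold the motif and were called with a drug. Each runs from a few bases before the motif to a few after it, read 5′ to 3′ along the strand of its gene. Capitals mark the motif or its reverse complement, and overlapping matches run together.
IFIH1: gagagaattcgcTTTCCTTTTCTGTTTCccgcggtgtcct
DDX60: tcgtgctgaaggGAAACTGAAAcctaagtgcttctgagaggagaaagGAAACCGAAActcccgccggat
IFIT5: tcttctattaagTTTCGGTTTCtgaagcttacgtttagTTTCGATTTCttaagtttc
ISG15: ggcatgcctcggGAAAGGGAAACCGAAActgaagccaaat
SAMD9: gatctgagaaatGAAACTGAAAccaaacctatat
IFI44: gggcacactgagTTTCAGTTTCctttctct
IFI6: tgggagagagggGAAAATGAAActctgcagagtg
GBP1: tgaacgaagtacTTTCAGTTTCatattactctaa
The windows lie at chr2:162318816-162318855 on the minus strand (IFIH1), chr4:168318784-168318852 on the minus strand (DDX60), chr10:89414511-89414567 on the plus strand (IFIT5), chr1:1013372-1013411 on the plus strand (ISG15), chr7:93118094-93118127 on the minus strand (SAMD9), chr1:78649759-78649788 on the plus strand (IFI44), chr1:27672327-27672360 on the minus strand (IFI6) and chr1:89065314-89065347 on the minus strand (GBP1). ISG15, IFIH1, DDX60 and IFIT5 each held 2 matches in the window, and the other 4 genes held 1. The letters are absent from the promoters of STAT2, IFI16, IRF1, MAVS, CMPK2 and RIG-I in these windows, which says nothing of the factors that bind there.

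The libraries held between 16213475 and 37424081 counts. MITF, a regulator of the melanocytic lineage, had group means from 69.0 to 177 CPM (counts scaled to the size of the library) in all groups, and DCT, a pigment enzyme, had means from 36.4 to 134 CPM in CHL1 and from 0 to 1.33 CPM in A375. The leukocyte gene PTPRC had means from 7.59 to 16.8 CPM in the CHL1 groups and at most 0.490 CPM in A375, while CD14 and CD79A stayed below 1 CPM in every group. Some libraries stood apart by the GC content of their genes. Against the median library of the line, genes among the richest 10% in GC were lower than those among the poorest 10% by 2.49 and 1.98 on the log2 scale in the CHL1 PRMT5i libraries and by 2.27 and 1.12 in the A375 6-day control libraries. The same difference lay between -0.17 and 0.50 in the other 14 libraries. Each comparison below is therefore given as counted and, where it matters, after a correction for each library's GC trend (GC correction), and the share of each change that belongs to the trend cannot be told apart from the drug or the time.

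In untreated cells, the sensors of RNA and the effectors were present at very different levels. Per kilobase of transcript in the 72-hour controls, the level was highest for IFI35, IFI16 and EIF2AK2 in CHL1, at 50.4, 23.1 and 16.1 CPM per kilobase. In A375 it was highest for IFI44, IFI35, IFI16 and EIF2AK2, at 22.3, 19.9, 19.4 and 17.1 CPM per kilobase. IFI16 is a nuclear sensor of DNA, and EIF2AK2 encodes PKR, a kinase that stops translation when it binds viral RNA. The median over the 40 members was 2.55 CPM per kilobase in CHL1 and 3.86 in A375. OAS1 and XAF1 stayed under 1 CPM in every group, and OAS1, BST2 and XAF1 had at most 3 counts in each library of some CHL1 groups.

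CHL1 and A375 differed in most members before any drug. Of the 40 members, 27 (67.5%) passed an adjusted p of 0.05 in the comparison of the 72-hour controls, 7 of them higher and 20 lower in CHL1. The background was 58.9% of all 20705 genes, 29.3% higher and 29.6% lower. The median log2 difference (CHL1 minus A375) was -0.63 over the members and -0.02 over all genes. In bulk RNA, here and below, fewer cells that express a gene and less of its RNA per cell cannot be told apart.

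The widest differences in the direction of CHL1 were those of CMPK2 and RSAD2, neighbouring genes on chromosome 2 for a mitochondrial nucleotide kinase and for viperin. CMPK2 had 18.7 and 18.7 CPM in the CHL1 controls and 1.64 and 1.17 CPM in the A375 controls. RSAD2 had 3.73 and 3.12 CPM against 0.386 and 0.293 CPM. The log2 differences were 3.72 ± 0.28 (SE) for CMPK2 (adjusted p = 1.67e-09) and 3.31 ± 0.46 for RSAD2 (adjusted p = 5.26e-06). IFI35 was also higher in CHL1, with 60.7 and 63.4 CPM against 24.9 and 24.2 CPM, a log2 difference of 1.34 ± 0.23 (adjusted p = 7.63e-05). For these 3 genes the libraries of the 2 lines did not overlap.

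The widest differences in the direction of A375 were those of BST2, IFITM2 and STING. BST2 encodes tetherin, which holds budding virus at the cell surface. It had 123 counts over the 2 A375 controls and 2 counts over the 2 CHL1 controls, a ratio of 85.4 in CPM with a 95% interval of 23.1 to 713, which covers counting error only. IFITM2, which blocks viral entry and has close paralogues that could share its reads, had 13.0 and 13.1 CPM in A375 and 1.04 and 0.851 CPM in CHL1. TMEM173, the gene of STING (chromosome 5: 138855118 to 138862520 on GRCh37, minus strand), had 36.5 and 36.5 CPM in A375 and 3.11 and 2.84 CPM in CHL1. Its log2 difference was -3.62 ± 0.27 (adjusted p = 1.60e-09), and that of IFITM2 was -3.78 ± 0.36 (adjusted p = 4.06e-08). The libraries of the lines were far apart for all 3 genes. NLRC5, a transactivator of MHC class I genes, was likewise lower in CHL1, with 7.32 and 7.13 CPM against 45.1 and 37.9 CPM (adjusted p = 2.48e-08). STAT2 and IFI16 did not pass, at log2 differences of -0.28 ± 0.17 and 0.25 ± 0.25. The labels name the A375 72-hour libraries in another scheme than the CHL1 ones, whereas the A375 6-day controls share the scheme of CHL1 but differ in time and carry the GC trend. Set against those 6-day controls, 31 of 40 members were called, 11 higher and 20 lower in CHL1, against a background of 61.0%. The log2 differences were then 2.24 for CMPK2, 2.44 for RSAD2, 2.15 for IFI35, -4.09 for BST2, -3.04 for IFITM2 and -2.35 for TMEM173. All 6 kept their direction and passed (the highest adjusted p, that of BST2, was 4.18e-05), while the differences of CMPK2, RSAD2, IFITM2 and TMEM173 were smaller and that of IFI35 larger than against the 72-hour controls.

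**Figure D1:**
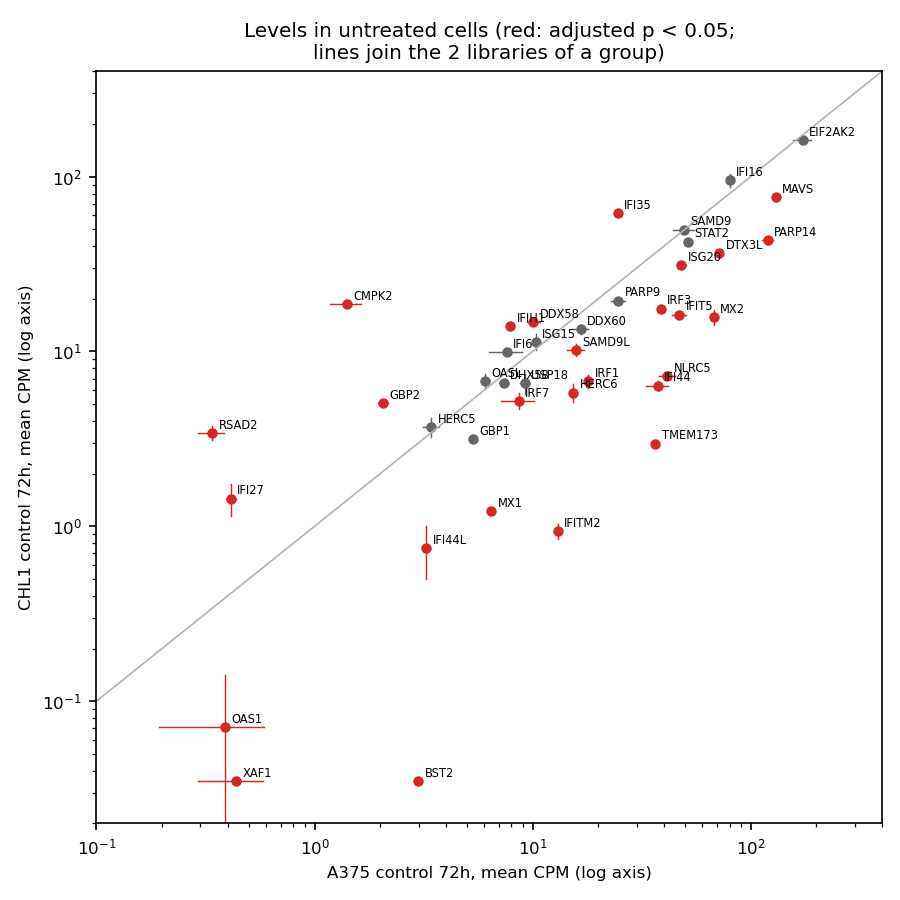
Mean CPM of the 40 members in the 72-hour controls of A375 (x axis, log scale) and CHL1 (y axis, log scale). Points are means of 2 libraries, lines join the 2 libraries (a library at 0 is drawn to the end of the axis), and red marks an adjusted p below 0.05. BST2, TMEM173 and IFITM2 sit far below the diagonal of equal levels and CMPK2 and RSAD2 far above it.

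Palbociclib for 72 hours raised STAT2 and lowered IFI16 in CHL1. No other member passed, so 2 of 40 (5.0%) were called against a background of 4.98% of all genes (2.27% higher and 2.72% lower), and the median log2 fold change was 0.23 over the members and 0 over all genes. STAT2 (chromosome 12: 56735381 to 56753987, minus strand), a transcription factor that joins IRF9 after interferon, had 41.0 and 44.1 CPM in the controls and 81.2 and 79.4 CPM after palbociclib. It rose by 0.91 ± 0.18 on the log2 scale, a fold of 1.88 (adjusted p = 0.0160). IFI16 (chromosome 1: 158969758 to 159024945, plus strand) had 103 and 87.3 CPM in the controls and 56.6 and 46.7 CPM after palbociclib. It fell by 0.89 ± 0.19 on the log2 scale (adjusted p = 0.0213). Treated and control libraries did not overlap for either gene. Neither call held when any of the 4 libraries was left out (adjusted p from 0.114 to 0.165 for STAT2 and from 0.111 to 0.210 for IFI16), although STAT2 kept a rise of 0.86 to 0.97 and IFI16 a fall of 0.76 to 1.04 on the log2 scale. With GC correction 4 members were called, STAT2, RSAD2 and CMPK2 higher and IFI16 lower, against a background of 13.4% (6.69% higher and 6.69% lower).

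After 6 days of palbociclib in CHL1, 6 of the 40 members rose and IFI16 fell, which is 17.5% in all, against a background of 16.6% (8.83% higher and 7.80% lower). The median log2 fold change was 0.18 over the members and 0.03 over all genes. The genes that rose were STAT2, IFIT5, RSAD2, CMPK2, GBP1 and GBP2, and the last 2 encode guanylate-binding GTPases that attack the membranes of intracellular pathogens.

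GBP1 had 3.07 and 3.23 CPM in the controls, 4.33 and 4.28 CPM at 72 hours and 8.80 and 7.30 CPM at 6 days. GBP2 had 4.94 and 5.14 CPM, then 5.79 and 4.71 CPM, then 10.3 and 14.0 CPM. Both were above every control at 6 days, and GBP2 overlapped with the controls at 72 hours. The 6-day log2 fold changes were 1.37 ± 0.21 for GBP1 (adjusted p = 0.00211) and 1.28 ± 0.22 for GBP2 (adjusted p = 0.00318). STAT2 had 87.8 and 108 CPM at 6 days, 1.21 ± 0.18 above its controls (adjusted p = 0.00157). With no 6-day control in CHL1, time in culture and drug cannot be told apart for these genes. In untreated A375, GBP2 had a mean of 2.06 CPM at 72 hours and 18.8 CPM at 6 days. GBP1 had 5.34 and 6.60 CPM there, and STAT2 had 51.8 and 31.8 CPM. Those A375 controls also differ in library set and GC trend.

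The neighbours RSAD2 and CMPK2 both rose. In the annotation used here, 6.2% of the exonic bases of RSAD2 and 8.0% of those of CMPK2 overlap with the other gene on the opposite strand. Whether strand was used in counting is not spelled out, so their counts may not be fully separate. RSAD2 had 7.70 and 8.01 CPM at 6 days, a log2 fold change of 1.21 ± 0.21 (adjusted p = 0.00385). CMPK2 had 41.4 and 30.2 CPM, a log2 fold change of 0.96 ± 0.19 (adjusted p = 0.00609). At 72 hours their values already lay above both controls, with 6.09 and 5.03 CPM for RSAD2 and 30.4 and 29.0 CPM for CMPK2, but did not pass (adjusted p = 0.0882 and 0.0623). IFIT5, an RNA-binding member of the IFIT family, had 17.0 and 15.5 CPM in the controls and 31.0 and 20.5 CPM at 6 days (0.68 ± 0.21, adjusted p = 0.0488). IFI16 had 43.4 and 35.5 CPM at 6 days and fell by 1.26 ± 0.19 on the log2 scale (adjusted p = 0.00165). With GC correction 12 members were called, 11 of them higher, against a background of 28.2% (14.7% higher and 13.5% lower), and all 7 named above were among them. Without control replicate 2, fewer members were called, RSAD2 not among them, and fewer of all genes were called too.

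DDX58, IFIH1 and their adaptor MAVS did not pass in CHL1 with palbociclib. DDX58 had 14.2 and 15.1 CPM in the controls, 15.9 and 16.3 CPM at 72 hours and 14.8 and 14.7 CPM at 6 days. Log2 fold changes at 6 days were 0.02 ± 0.16 for DDX58, 0.03 ± 0.19 for IFIH1, 0.19 ± 0.19 for MAVS and 0.17 ± 0.31 for TMEM173. DHX58, the regulator LGP2 of the RNA sensors, had 6.74 and 6.49 CPM in the controls and 11.4 and 12.0 CPM at 6 days, which do not overlap. It missed the threshold as counted (0.84 ± 0.27, adjusted p = 0.0541) and passed with GC correction (0.76, adjusted p = 0.0121). Among the regulators, IRF1, IRF3, IRF7 and NLRC5 had values from -0.21 to 0.44 and did not pass. The direct test of 6 days against 72 hours called 0 of 40 members, with 3 calls (0.0145%) among all genes. Of the members, 4 had an unadjusted p below 0.05, beside 1634 of all 20705 genes. DESeq2 called 1 member and 64 of 20283 genes. With GC correction 0 were called by edgeR, against 0.0428% of genes (0.0306% higher and 0.0122% lower).

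In A375, palbociclib for 72 hours raised 6 of 40 members (15.0%) and lowered none that passed. At an unadjusted p below 0.05 there were 16 members, beside 5731 of all 20705 genes. The background was 13.3% (6.22% higher and 7.11% lower), and the median log2 fold change was 0.25 over the members and 0.00 over all genes. The genes were DDX58 and MAVS of the RNA pathway, STAT2, ISG15 and HERC6 of the ISG15 pathway, and GBP2. IFIH1, DHX58, TMEM173, IFI16, IRF1, IRF3, IRF7 and NLRC5 did not pass as counted.

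DDX58 (chromosome 9: 32455300 to 32526206, minus strand) had 10.8 and 9.38 CPM in the controls and 22.3 and 19.0 CPM after palbociclib, a log2 fold change of 0.98 ± 0.23 (adjusted p = 0.00944). In the annotation used here 43.2% of its exonic bases overlap with another gene model, so its counts are uncertain if the authors' counting split them. MAVS had 129 and 132 CPM in the controls and 217 and 212 CPM after palbociclib (0.66 ± 0.20, adjusted p = 0.0425). STAT2 had 54.0 and 49.5 CPM and then 102 and 91.4 CPM (0.84 ± 0.18, adjusted p = 0.00497). All 3 genes stood above both controls in both libraries.

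ISG15 encodes a ubiquitin-like protein that is attached to other proteins and secreted in the interferon response. It had 10.1 and 10.6 CPM in the controls and 25.5 and 22.1 CPM after palbociclib, a fold of 2.20 (log2 1.14 ± 0.25, adjusted p = 0.00707). HERC6, of the family of ISG15 ligases, had 15.1 and 15.7 CPM and then 29.1 and 26.3 CPM (0.79 ± 0.20, adjusted p = 0.0149). GBP2 had the largest rise, from 2.17 and 1.96 CPM to 6.66 and 5.61 CPM (1.51 ± 0.39, adjusted p = 0.0178).

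This count depended on the libraries in the fit. Without the 6-day control libraries, 17 of 40 members were called, 13 higher and 4 lower, against a background of 27.7% (13.1% higher and 14.6% lower). All 6 genes called above were among the 17. The 7 added genes that were higher were IRF3, PARP9, IFITM2, SAMD9, SAMD9L, IFI6 and IFI35, and the 4 lower were DDX60, TMEM173, HERC5 and EIF2AK2. With GC correction 14 were called, 12 of them higher, against 24.3% (11.8% higher and 12.5% lower). A fit of the 72-hour A375 libraries alone called 20 members, against 31.0% of genes, and 23 with the replicate number as a block, against 42.3%. With 1 library left out of either group, fewer members were called each time, and fewer of all genes were called too.

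After 6 days of palbociclib in A375, 14 of 40 members (35.0%) were called, 8 higher and 6 lower, against a background of 43.1% (21.8% higher and 21.3% lower). The median log2 fold change was 0.34 over the members and 0.10 over all genes. MAVS, STAT2, IRF3, NLRC5, OASL, ISG15, MX2 and IFI35 were higher. DDX60, IFIT5, HERC5, BST2, EIF2AK2 and IFI44 were lower.

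The controls of this comparison are those with the GC trend, and the calls followed GC content. Of the 21 members under 45% GC, 0 were higher and 5 were lower, beside 5.60% and 45.6% of all genes in that range. Of the 17 members at 50% GC or more, 7 were higher and 1 was lower, beside 40.9% and 5.55% of all genes. With GC correction 16 members were higher and 3 lower, against a background of 38.5% (20.5% higher and 18% lower). MAVS, STAT2, IRF3, NLRC5, OASL, ISG15 and IFI35 were higher and HERC5, BST2 and EIF2AK2 lower both as counted and with the correction. BST2 had a mean of only 0.670 CPM in the 6-day controls and lost its call in a fit of only the compared groups. DDX60, IFIT5, IFI44 and MX2 lost their calls with GC correction.

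Among the transcription regulators, STAT2 had 29.1 and 34.5 CPM in the 6-day controls and 86.5 and 82.3 CPM after palbociclib, the fold being 2.64 (log2 1.40 ± 0.18, adjusted p = 3.66e-05, and 1.08 with GC correction). IRF3, which carries the signal of the sensors to the interferon genes, had 13.5 and 22.4 CPM and then 42.6 and 44.5 CPM (1.27 ± 0.22, adjusted p = 0.00036, and 0.78 with GC correction). NLRC5 had 18.5 and 27.3 CPM and then 45.1 and 49.7 CPM (1.04 ± 0.21, adjusted p = 0.00105, and 0.55 with GC correction). For these 3 genes both treated libraries were above both controls. IRF1 and IRF7 did not pass, at 0.68 ± 0.30 and 0.38 ± 0.31.

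Several of these calls depended on which A375 control was used. Against the 72-hour controls 17 members were called, 7 higher and 10 lower, against a background of 31.2%. STAT2 (0.66, adjusted p = 0.00885) still passed, and DDX58 did so as well (1.01, adjusted p = 0.00266). IRF3 (0.13, adjusted p = 0.694), NLRC5 (0.14, adjusted p = 0.637) and MAVS (0.15, adjusted p = 0.61) did not pass. OASL and ISG15 changed sign. OASL, an OAS protein that supports RIG-I, had 0.451 and 0.595 CPM in the 6-day controls, 1.37 and 1.82 CPM at 6 days of palbociclib, and 6.32 and 5.82 CPM in the 72-hour controls. Its log2 fold change was 1.59 ± 0.32 against the 6-day controls (adjusted p = 0.00118) and -1.97 against the 72-hour ones (adjusted p = 5.72e-05). ISG15 had 2.70 and 4.51 CPM in the 6-day controls and 9.23 and 8.95 CPM after palbociclib (1.33 ± 0.26, adjusted p = 0.000913), and stood at -0.23 against the 72-hour controls (adjusted p = 0.517). The 6-day and 72-hour A375 libraries are named in different schemes, so time and library set cannot be told apart in such a comparison.

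HERC5, the main ISG15 ligase, had the largest fall of the 6, from 10.3 and 6.70 CPM to 2.79 and 2.70 CPM (-1.63 ± 0.28, adjusted p = 0.000344, and -1.45 with GC correction). EIF2AK2 had 248 and 170 CPM in the controls and 104 and 104 CPM after palbociclib (-1.0 ± 0.19, adjusted p = 0.000872, and -0.40 with GC correction). DDX60, a helicase that promotes RIG-I signalling, had 17.1 and 10.5 CPM and then 6.67 and 6.79 CPM (-1.03 ± 0.24, adjusted p = 0.00340). IFIT5 had 82.2 and 65.8 CPM and then 41.5 and 35.8 CPM (-0.94 ± 0.19, adjusted p = 0.00105). With GC correction, DDX60 stood at -0.37 and IFIT5 at -0.16 and neither passed. Against the 72-hour controls HERC5 (-0.37, adjusted p = 0.365) and IFIT5 (-0.33, adjusted p = 0.2) did not pass, whereas DDX60 (-1.35, adjusted p = 0.000575) and EIF2AK2 (-0.78, adjusted p = 0.00624) did.

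Among the sensors, DDX58 had 16.2 and 13.2 CPM in the 6-day controls and 17.2 and 24.7 CPM after palbociclib. It missed the threshold as counted (0.51 ± 0.22, adjusted p = 0.0689) and passed with GC correction (1.03, adjusted p = 0.00132). SAMD9 and SAMD9L, neighbouring genes for restriction factors of poxviruses that are named after their values were seen, were at -0.12 and 0.13 as counted and at 0.81 and 0.83 with GC correction (adjusted p = 0.000775 and 0.00149). IFI16 was at -0.44 ± 0.25 as counted and 0.28 with the correction, neither of which passed. The 2 control libraries of IFI16 were far apart, at 213 and 98.4 CPM.

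The change in the response of A375 between 72 hours and 6 days, tested directly, called 0 of 40 members against a background of 1.08%. At an unadjusted p below 0.05 there were 9 members, beside 4118 of all 20705 genes. DESeq2 called 2 members and 1146 of 20624 genes. With GC correction HERC6 was called, against a background of 1.44% (0.33% higher and 1.11% lower), with a response lower at 6 days by 1.15 on the log2 scale (adjusted p = 0.0242). Without replicate 2 of the 6-day control the count was 17, against 33.9% of genes, and without replicate 1 it was 1, against 2.17%.

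STAT2 was the only member called in all 4 CDK4/6i comparisons, higher in each, as counted and with GC correction, and 118 of all genes (0.57%) were higher in all 4 as counted. The 2 CHL1 comparisons share their control. Of the 40 members, 21 (52.5%) were called in at least 1 of the 4 comparisons, beside 53.1% of all genes. As counted, STAT2 and GBP2 were called higher in both lines (5.0% of members, beside 3.78% of all genes). GBP2 was called at 6 days in CHL1 and at 72 hours in A375. With GC correction SAMD9L and IFI6 were higher in both lines as well (10.0% of members). As counted, no member was called lower in both lines. The shares of all genes for these last 2 counts were not obtained, so neither is read as particular to the members. IFIT5 was higher in CHL1 and lower in A375, both at 6 days, and the second of these calls was lost with GC correction. In a test of the difference between the lines at 72 hours, 0 of 40 members passed against a background of 0.642%. At an unadjusted p below 0.05 there were 6 members, beside 2073 of all 20705 genes. The largest differences (CHL1 minus A375) among the sensors were -1.19 ± 0.35 for IFI16 (adjusted p = 0.158) and -0.90 ± 0.28 for DDX58 (adjusted p = 0.170). With GC correction both passed, against a background of 2.9%, at -1.26 (adjusted p = 0.0141) and -0.93 (adjusted p = 0.0424). For STAT2 the difference was 0.02 ± 0.24.

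**Figure D2:**
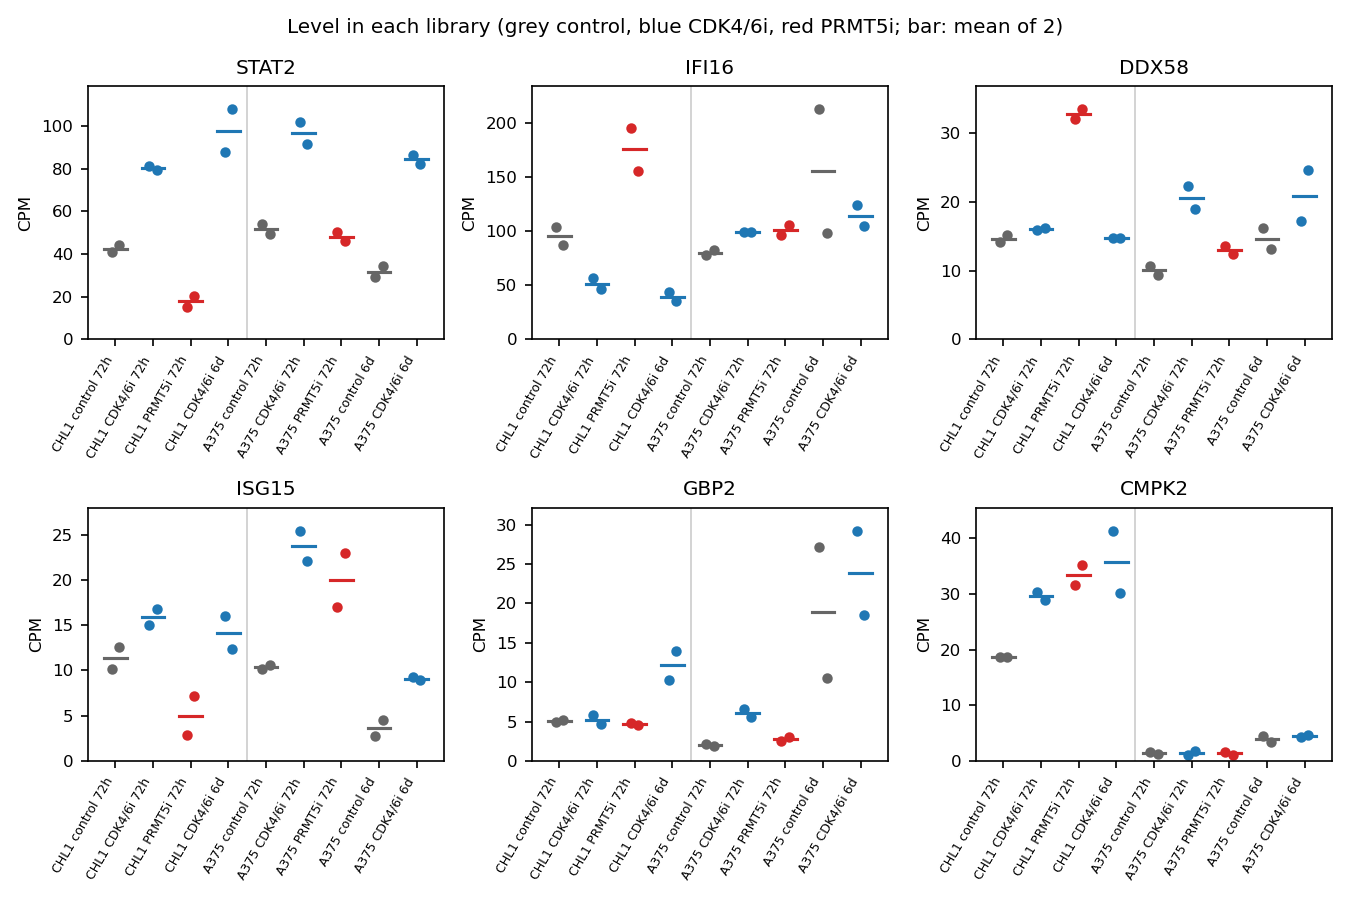
CPM of 6 members in each library (points) and their mean of 2 (bars) in the 4 CHL1 groups and, right of the line, the 5 A375 groups; each y axis starts at 0, with controls in grey, CDK4/6i in blue and PRMT5i in red. STAT2 lies between 79.4 and 108 CPM in the 8 palbociclib libraries and between 29.1 and 54.0 CPM in the controls. IFI16 falls with palbociclib in CHL1, and CMPK2 stays below 5 CPM in all A375 libraries.

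PRMT5i was followed in both lines at 72 hours. In CHL1, 27 of 40 members (67.5%) were called, 11 higher and 16 lower, against a background of 54.0% of all genes (26.4% higher and 27.6% lower). The median log2 fold change was -0.03 over the members and 0 over all genes. These are the libraries with the strongest GC trend. Of the 21 members under 45% GC, 10 were higher and 1 was lower, beside 62.6% and 2.45% of all genes in that range. Of the 17 members at 50% GC or more, 1 was higher and 14 were lower, beside 2.29% and 62.2% of all genes. In both ranges the share of members called in the leading direction is set beside that of all genes and is not read as particular to the members.

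With GC correction 21 members were called in CHL1, 5 higher and 16 lower, against a background of 31.2% (14.5% higher and 16.7% lower). As counted and with the correction alike, 16 were called in the same direction. Of these, DDX58, IFIH1, CMPK2 and EIF2AK2 were higher, and TMEM173, MAVS, STAT2, IRF1, IRF3, OASL, USP18, MX2, ISG20, IFI6, IFI27 and IFI35 were lower. The other 11 calls were lost with the correction, and IFITM2 (higher) and PARP14, MX1, GBP1 and GBP2 (lower) were added.

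The RNA sensors DDX58 and IFIH1, and EIF2AK2, were higher after PRMT5i in CHL1. DDX60 was called higher as counted only, and DHX58, given below, was lower as counted. DDX58 had 14.2 and 15.1 CPM in the controls and 32.2 and 33.6 CPM after PRMT5i (log2 1.18 ± 0.16, adjusted p = 0.000173, and 0.39 with GC correction, adjusted p = 0.0395). IFIH1 had 13.8 and 14.1 CPM and then 29.5 and 29.0 CPM (1.08 ± 0.18, adjusted p = 0.000472, and 0.66 with the correction, adjusted p = 0.00519). EIF2AK2 had 165 and 160 CPM and then 433 and 363 CPM (1.31 ± 0.16, adjusted p = 0.000116, and 0.46 with the correction, adjusted p = 0.0138). All 3 transcripts lie under 45% GC, and the rises shrank with the correction but passed.

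CMPK2 and USP18 went against their GC content and are named here after their values were seen. At 51.4% GC, CMPK2 had 18.7 and 18.7 CPM in the controls and 31.7 and 35.2 CPM after PRMT5i, a log2 fold change of 0.86 ± 0.19 as counted (adjusted p = 0.00206) and 1.29 with GC correction (adjusted p = 0.000201). It was the member at 50% GC or more that was called higher. USP18, the protease that removes ISG15, was the reverse, at 43.1% GC. It had 5.73 and 7.44 CPM in the controls and 2.68 and 3.87 CPM after PRMT5i (-0.99 ± 0.24, adjusted p = 0.00450, and -1.42 with the correction, adjusted p = 0.000921).

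The adaptors STING and MAVS were lower after PRMT5i in CHL1. TMEM173 had 3.11 and 2.84 CPM in the controls and 0.402 and 0.896 CPM after PRMT5i, the largest fall among the members (-2.18 ± 0.36, adjusted p = 0.000407, and -1.29 with GC correction, adjusted p = 0.00866). MAVS had 73.5 and 79.0 CPM and then 19.6 and 30.6 CPM (-1.58 ± 0.20, adjusted p = 0.000126, and -1.10 with the correction, adjusted p = 0.000357). DHX58 was lower as counted (-1.39 ± 0.29, adjusted p = 0.00165) and did not pass with the correction (-0.43, adjusted p = 0.148). IFI16 had 196 and 156 CPM after PRMT5i against 103 and 87.3 CPM in the controls (0.90 ± 0.18, adjusted p = 0.00148), and its log2 fold change with the correction was -0.01.

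All 5 transcription regulators were lower as counted. All lie at 50% GC or more, where 62.2% of all genes were called lower, so this count is not read as particular to them. STAT2 had 41.0 and 44.1 CPM in the controls and 15.3 and 20.5 CPM after PRMT5i, a fall opposite in direction to that with palbociclib (-1.23 ± 0.18, adjusted p = 0.000238, and -0.84 with the correction, adjusted p = 0.00109). IRF3 had 17.5 and 17.7 CPM and then 3.45 and 5.88 CPM (-1.90 ± 0.26, adjusted p = 0.000165, and -0.90 with the correction). IRF1, an activator of interferon and MHC genes, had 6.18 and 7.30 CPM and then 1.95 and 3.19 CPM (-1.38 ± 0.26, and -0.84 with the correction). These 3 passed both ways. IRF7 and NLRC5, at 66.8% and 58.0% GC, were at -1.33 and -1.28 as counted and at -0.16 and -0.33 with the correction, where neither passed.

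Other effectors divided by GC content too. IFI35, an interferon-induced leucine zipper protein, had 60.7 and 63.4 CPM in the controls and 11.4 and 19.8 CPM after PRMT5i (-1.98 ± 0.25, adjusted p = 0.000123, and -1.01 with the correction, adjusted p = 0.00121). IFI6, a regulator of apoptosis in mitochondria, had 9.60 and 10.2 CPM and then 2.28 and 3.26 CPM (-1.82 ± 0.22, and -0.95 with the correction). IFI44 and SAMD9, at 39.1% and 36.0% GC, rose by 1.34 ± 0.20 and 1.24 ± 0.19 as counted, and stood at 0.48 and 0.13 with the correction, where neither passed.

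In A375, PRMT5i at the same dose and time called 0 of 40 members, against a background of 2.61% (0.874% higher and 1.74% lower). At an unadjusted p below 0.05 there were 4 members, beside 3332 of all 20705 genes. DESeq2 called 1 member and 901 of 20624 genes. The median log2 fold change was 0.00 over the members and 0 over all genes. STAT2 had 54.0 and 49.5 CPM in the controls and 50.4 and 46.0 CPM after PRMT5i (-0.12 ± 0.18). DDX58 was at 0.36 ± 0.23, IFIH1 at 0.45 ± 0.29, IRF3 at 0.03 ± 0.22 and NLRC5 at -0.09 ± 0.21. ISG15 had the highest log2 fold change, with 10.1 and 10.6 CPM in the controls and 17.0 and 23.0 CPM after PRMT5i (0.93 ± 0.25, adjusted p = 0.0609). Both treated libraries lay above both controls for this gene. With GC correction 4 members were called against 8.45% of genes (3.37% higher and 5.08% lower). ISG15 (0.85, adjusted p = 0.0144) and SAMD9 (0.50, adjusted p = 0.0417) were higher, and TMEM173 (-0.55, adjusted p = 0.0348) and IFI35 (-0.58, adjusted p = 0.0191) were lower. Without the 6-day control libraries 3 were called against 12.0% (4.74% higher and 7.23% lower), namely ISG15, TMEM173 and IFI35. A fit of the 72-hour A375 libraries alone called 5, against 15.8%, and 9 with the replicate number as a block, 6 higher and 3 lower, against 29.5%. The palbociclib and PRMT5i comparisons of A375 at 72 hours share their control.

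The response to PRMT5i differed between the lines for 20 of 40 members (50%), 6 with a more positive and 14 with a more negative log2 fold change in CHL1, against a background of 40.9% (18.8% higher and 22.1% lower). With GC correction 9 did, against 23.8% (10.9% higher and 12.9% lower), and 6 of the 20 were among them in the same direction: MAVS, STAT2, IRF3, ISG15, USP18 and MX2, all more negative in CHL1. For STAT2 the difference was -1.15 ± 0.24 as counted (adjusted p = 0.00138) and -0.73 with the correction (adjusted p = 0.00928). For ISG15 it was -2.13 ± 0.44 (adjusted p = 0.00121) and -1.0 (adjusted p = 0.0315). CMPK2, MX1 and GBP1 passed with the correction alone. Between the lines the medium and the set of libraries differ too, and the GC trend is present in CHL1 alone. Line, medium, set and trend therefore cannot be told apart.

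**Figure D3:**
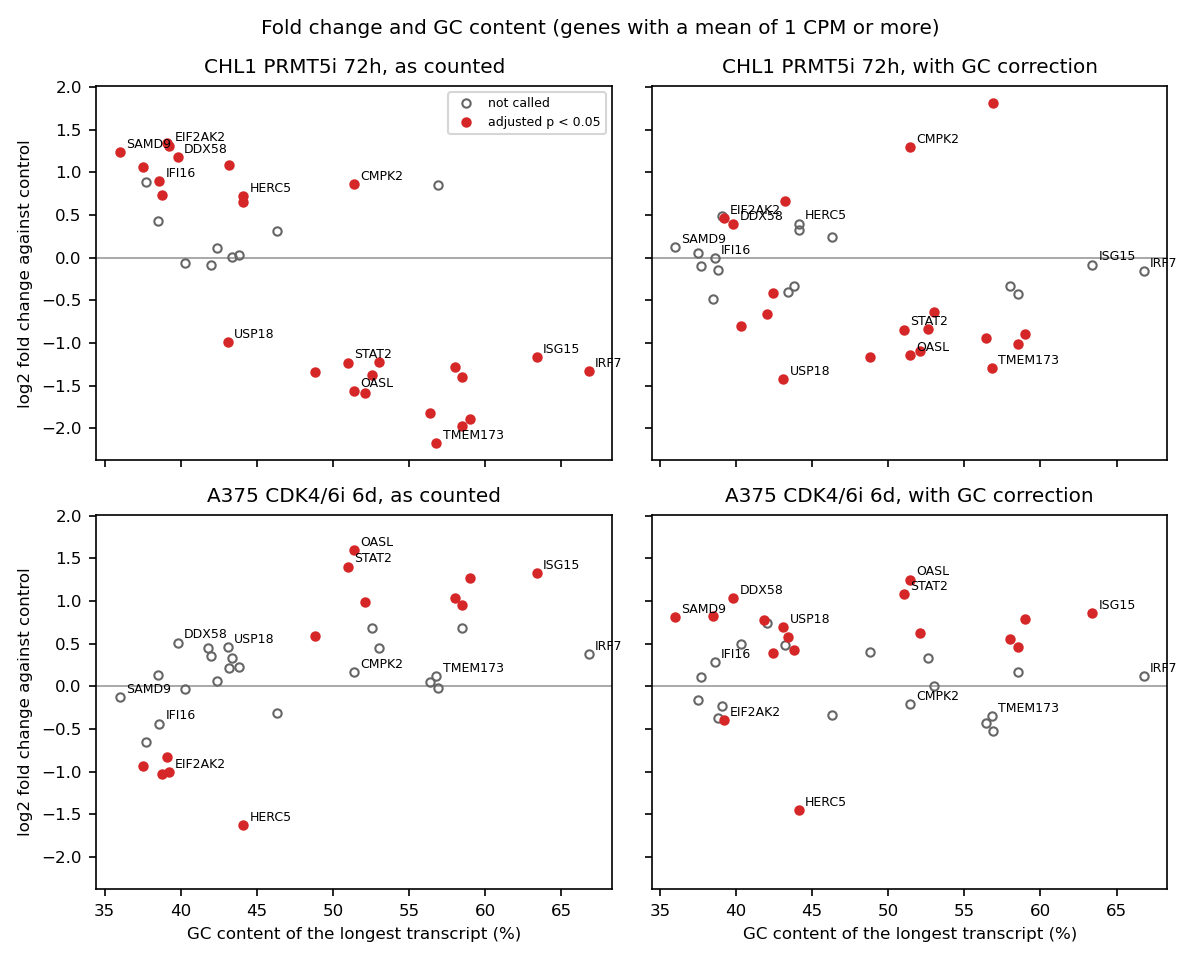
Log2 fold change against control (y axis) by GC content of the longest transcript in percent (x axis) for members with a mean of at least 1 CPM, for CHL1 PRMT5i (top) and A375 CDK4/6i at 6 days (bottom), as counted (left) and with GC correction (right); filled red points passed an adjusted p of 0.05. As counted the values slope down with GC content in CHL1 and up in A375, and CMPK2, USP18 and HERC5 lie off the slope.

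The other genes of the pathway were a list of 61, of which 49 had an entry. IFNA1 was the ligand with an entry, and its group means lay between 0 and 0.959 CPM. Against control, palbociclib called 1 of the 49 higher and 1 lower in CHL1 at 72 hours, 6 and 4 at 6 days, 7 and 2 in A375 at 72 hours, and 19 and 8 at 6 days. PRMT5i called 15 higher and 21 lower in CHL1 and 0 in A375. The shares of all genes called in these 6 comparisons were 4.98%, 16.6%, 13.3%, 43.1%, 54.0% and 2.61% in that order. With GC correction the counts higher and lower were 5 and 4, 11 and 6, 14 and 5, and 21 and 5 with palbociclib, and 7 and 14 in CHL1 and 2 and 0 in A375 with PRMT5i.

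Only SLFN5 and RNASEH2B of the 49 were called in all 4 CDK4/6i comparisons as counted, and they are named here after their values were seen. Of all genes, 118 (0.57%) were higher in all 4, and the share lower in all 4 was not obtained. Values with GC correction are not given here for either gene. SLFN5, an interferon-stimulated gene of the Schlafen family, had 116 and 103 CPM in the CHL1 controls, 334 and 353 CPM at 72 hours and 438 and 338 CPM at 6 days of palbociclib. In A375 it had 86.9 and 78.0 CPM and then 209 and 202 CPM at 72 hours, and 147 and 90.3 CPM and then 195 and 184 CPM at 6 days. Its log2 fold changes were 1.65 ± 0.17, 1.84 ± 0.17, 1.26 ± 0.21 and 0.68 ± 0.20 in that order. RNASEH2B, a subunit of the ribonuclease that removes RNA from RNA-DNA hybrids, fell in each, by 0.64 ± 0.16, 0.59 ± 0.16, 0.75 ± 0.21 and 1.14 ± 0.21 on the log2 scale.

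**Figure D4:**
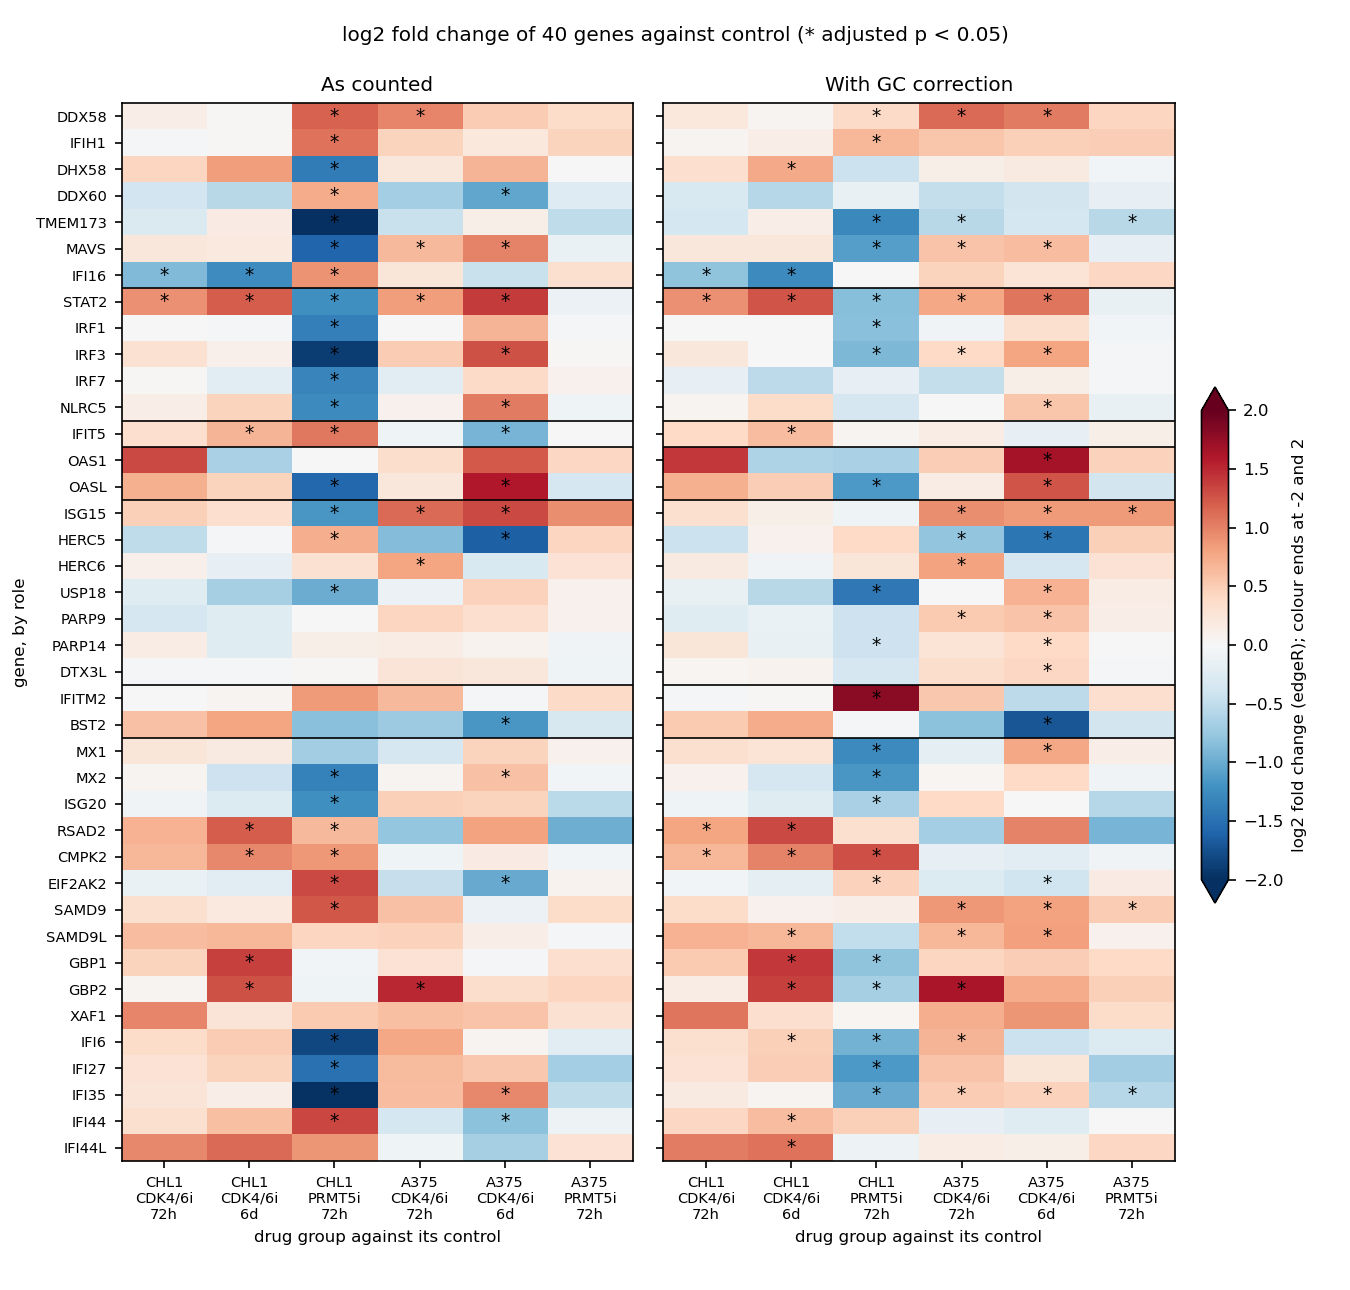
Log2 fold change (colour, cut at -2 and 2) of the 40 members, grouped by role between the lines, in the 6 comparisons of a drug with its control, as counted (left) and with GC correction (right); stars mark an adjusted p below 0.05. STAT2 is starred red in the 4 CDK4/6i columns of both panels, and the column of A375 PRMT5i holds no star as counted and 4 with the correction.

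Over the 6 comparisons with a control, 31 of the 40 members (77.5%) were called in at least 1 and 9 in none, beside 73.0% of all genes called in at least 1.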

How the data were processed

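Poly(A) RNA (TruSeq RNA libraries) was sequenced from CHL1 and A375 cells in 18 libraries. The authors deposited whole-number read counts per gene symbol, and their sources name FastQC 0.11.6, HISAT2 2.0.4, SAMtools 1.18, Picard 2.17.3, HTSeq (0.11.2 in the submitters' notes, a later release in the study's methods), GRCh37 and a filter on low expression in edgeR. HTSeq ran at its default settings, and whether strand was used is not spelled out. The members and lists were chosen with earlier results of these data known.

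The 20705 genes were fitted as deposited, with no further filter, by edgeR 4.0.16 (R 4.3.3) with TMM scaling and the quasi-likelihood test, on all 8 CHL1 or all 10 A375 libraries, or all 18 between lines. P-values were adjusted by Benjamini-Hochberg over all genes, and a gene was called below 0.05. Fold changes are on the log2 scale with their SE, and CPM used TMM library sizes. GC correction added a loess curve (span 0.4) of each library on transcript GC content as an offset, for 16363 genes with a value. These were 79.0% of the genes, too few for a check of the whole table, but included all 40 members. Gene positions are on GRCh37. Further members share exonic bases with other gene models, among them XAF1 (38.3%), IFI6 (23.1%), IRF1 (22.9%) and IRF3 (19.3%), so their counts carry the same uncertainty as those of DDX58. A ratio of counts has a 95% exact interval.

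Members were named by rule: in each comparison with a control the 4 largest rises and falls called at a mean of at least 1 CPM, in the other 5 comparisons the 3 largest each way, and all where a count was 5 or fewer. The sensors and regulators were followed in each comparison with a control, and those not called are not all given by value. CMPK2, IFIT5, HERC6, SAMD9, SAMD9L and USP18 were also named after their values were seen. Deviations of same-numbered libraries from their group means correlated at 0.22, 0.25 and 0.48 among the A375 72-hour groups and from -0.34 to 0.44 within CHL1, and no source used here says what a shared number marks. The script was tested on simulated data. Alternatives were a threshold of 0.01, median-of-ratios scaling, a filter of 1 CPM in 2 libraries, DESeq2 1.42.0, limma 3.58.1 on log2 CPM with a pseudocount of 1, fits of only the compared groups, GC correction, a replicate block, another A375 control and leaving out each library. The fit without the libraries with a GC trend was added after seeing the data.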

Additional observations from a re-analysis of the deposited data

Results flagged for a closer look

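The change with PRMT5i differed between CHL1 and A375 by a test of the difference itself for 20 members. Of those with the largest differences (CHL1 minus A375, log2 scale), the values were 1.41 for IFI44, 1.21 for EIF2AK2, 1.03 for IFIT5, -2.13 for ISG15, -1.95 for IRF3 and -1.70 for TMEM173. With GC correction ISG15 and IRF3 kept a called difference, the other 4 did not, and IFIT5 stood at -0.05. The CHL1 PRMT5i libraries carry the GC trend and the A375 ones do not, so line and trend cannot be told apart.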

How the results depend on the processing

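Counts of called members that moved by more than 1.5 times are given here, and calls over all 20705 genes moved too. With only the compared groups, these were 4202 in CHL1 and 6940 in A375 for CDK4/6i at 72 hours. They were 1861 for A375 PRMT5i and 1797 for the CDK4/6i difference between lines. That difference had 3.04% of genes called without the libraries with a GC trend. At 0.01 they were 1226 for A375 CDK4/6i at 72 hours and 5716 for the PRMT5i difference. In CHL1, CDK4/6i at 72 hours (2) gave 0 at a threshold of 0.01 and 0 by limma, where 214 and 262 of all genes were called. It gave 7 with only the compared groups, 4 with GC correction and 4 without the libraries with a GC trend (10.1% of all genes). At 6 days (7) the last 2 settings both gave 12, against 28.2% and 24.0% of all genes. In A375, CDK4/6i at 72 hours (6) gave 3 at 0.01, 20 with only the compared groups, 14 with GC correction and 17 without the trend libraries, and PRMT5i (0) gave 1 by DESeq2, 4, 4 and 3. The 6-day against 72-hour test in CHL1 (0) gave 1 by DESeq2, and the same test of the A375 response (0) gave 1 by median-of-ratios scaling, 2 by DESeq2 and 1 with GC correction. The CDK4/6i difference between lines (0) gave 8 with only the compared groups, 2 with GC correction and 3 without the trend libraries, and the PRMT5i difference (20) gave 13 at 0.01 and 9 with GC correction. With 1 library left out, where a lone library is assumed to vary like the others, counts ranged from 0 to 0 and from 4 to 7 in CHL1 CDK4/6i at 72 hours and 6 days, from 21 to 28 in CHL1 PRMT5i, from 0 to 3 and from 14 to 21 in A375 CDK4/6i, from 0 to 17 in the A375 response, from 23 to 24 between controls and from 13 to 21 in the PRMT5i difference, the lowest being without CHL1 PRMT5i replicate 1; the other 3 stayed at 0. With the replicate block, CHL1 gave 2, 6 and 27 for CDK4/6i at 72 hours, at 6 days and PRMT5i. Of all 20705 genes, 796, 3167 and 11151 were called in that order. With the block and GC correction the first gave 4, beside 2405 of 16363 genes. Among the A375 72-hour libraries alone, CDK4/6i gave 20 without the block, 23 with it and 25 with GC correction (31.0%, 42.3% and 46.6% of all genes), and PRMT5i gave 5, 9 and 9 (15.8%, 29.5% and 33.6%). Among the members named by rule for a comparison, directions turned for IFI16 in CHL1 PRMT5i (-0.01 with GC correction, with or without the block). They also turned for IFIT5 in the PRMT5i difference (-0.05 with GC correction). In A375 at 6 days, set against the 72-hour control, they turned for OASL (-1.97), ISG15 (-0.23) and TMEM173 (-1.18). Outside the rule, SAMD9 in A375 at 6 days turned with GC correction, and other members were not followed in this way. The cause was not tested. With 2 libraries a group, small differences could not be detected.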
